A study of Homo sapiens with 4 samples.

Results

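The 26S proteasome is the ATP-dependent protease that breaks down ubiquitin-tagged proteins in the cytosol and nucleus. Its genes were taken as every row of the count tables whose symbol begins with PSMA, PSMB, PSMC, PSMD, PSME, PSMF or PSMG and ends in digits, which gave 48 genes of the 23228 listed. RNA was sequenced from ES2, an established human ovarian cancer (OCa) cell line, treated for 24 h with vehicle (2 samples) or with liquiritigenin (Liq) at 100 µM (2 samples). Liq is a plant flavanone that the study used as a natural ERβ agonist, and the dose is the one given in the study's methods. Both groups were unmodified cells of 1 cell line, kept for the treatment in medium without phenol red and with charcoal-treated serum, which limits estrogens from other sources. The sample labels do not say that the 2 samples of a group came from separate cultures. The spread on which the p-values rest, estimated in part across all tested genes, may therefore be technical.

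The proteasome is built from a barrel and caps. The barrel, the 20S core, has outer rings of alpha subunits (PSMA genes) that gate the entrance and inner rings of beta subunits (PSMB genes), some of which cut peptide bonds. The 19S cap has a base with a ring of ATPases (PSMC genes) that unfold the substrate and a lid that removes ubiquitin (most PSMD genes), while PSME genes encode other activators, PSMF1 an inhibitor and PSMG genes assembly chaperones of the core. Interferon induces alternative catalytic subunits that form the immunoproteasome, and the transcription factor NFE2L1 is known to raise proteasome genes together when proteasome activity is short. Proteasome inhibitors are cancer drugs, and cultured cancer cells generally express these genes at high levels.

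Reads counted on genes numbered 34573053 to 48933893 per sample, and 3 counts correspond to 0.0598 to 0.0844 CPM, the counts scaled to library size after TMM normalization. A chi-square comparison of counts gave 6.49 per degree of freedom within vehicle and 11.6 within Liq, against 60.5 to 74.7 between groups, so no pair of samples was taken for the same library. Of 9 markers of ovarian epithelial cancer, 5 passed the filter on low counts, with a summed level of 459 to 499 CPM in vehicle and 531 to 577 CPM in Liq. KRT7 was raised (log2 change 0.51), while PAX8 (-1.34), WT1 (-0.68) and KRT18 (-0.24) were lowered. Among those that did not pass, EPCAM, CDH1 and MUC16 had 0 to 3 counts in each sample. Of the 3 mesenchymal genes, VIM and FN1 were lowered (log2 changes of -0.28 and -0.15) and CDH2 was raised (0.22). The 4 leukocyte markers summed to 0.0801 to 0.309 CPM. CDH5, an endothelial cadherin, was at 44.6 to 52.9 CPM while the other endothelial marker, PECAM1, had 2 to 10 counts. ESR2, which encodes ERβ, had 4 and 7 counts in vehicle and 5 and 14 with Liq, and did not pass the filter. ESR1, which encodes ERα, passed the filter and was not called (log2 change 0.31). Per kilobase of transcript, ESR1 was at 0.0782 CPM in vehicle and ESR2 at 0.0208 CPM, both very low.

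Most proteasome genes were slightly lower in Liq-treated cells, at a ratio of 0.870 for their summed level. Of the 48 genes, 46 passed the filter, and of these 42 had a negative and 4 a positive log2 fold change of Liq over vehicle. The expression of 14 was lowered and that of 1, PSMB9, was raised at an adjusted p under 0.05 in edgeR's quasi-likelihood test, and 22 and 2 passed at an unadjusted p under 0.05. Over all 13546 tested genes, 11.3% were lowered and 12.6% raised at the adjusted threshold. The median log2 fold change of the 46 genes was -0.15, with quartiles of -0.22 and -0.10, whereas that of all tested genes was 0.01. At the study's own thresholds of a 1.5-fold change and an unadjusted p under 0.05, 1 member passed, PSMC1, which had 25 or fewer counts in every sample, and 7.85% of all tested genes passed. In bulk RNA a lower level per cell and a changed mix of cells cannot be told apart.

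The shift was seen in each Liq sample. Summed over the 48 genes, proteasome transcripts came to 7127 and 6930 CPM in vehicle and to 6115 and 6114 CPM with Liq, so that the groups were well apart. The median difference of the 46 genes from the vehicle mean on the log2 scale was 0.02 and -0.02 in vehicle and -0.15 and -0.16 with Liq. For 33 genes both Liq samples lay below both vehicle samples, and for 3 genes, PSMB9, PSMC1 and PSME1, both lay above. Over all tested genes these shares were 30.2% and 31.5%. The remaining 10 genes overlapped between the groups. Genes called by the test are likely to be separated in this way, so separation is no further support for a call.

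**Figure D1:**
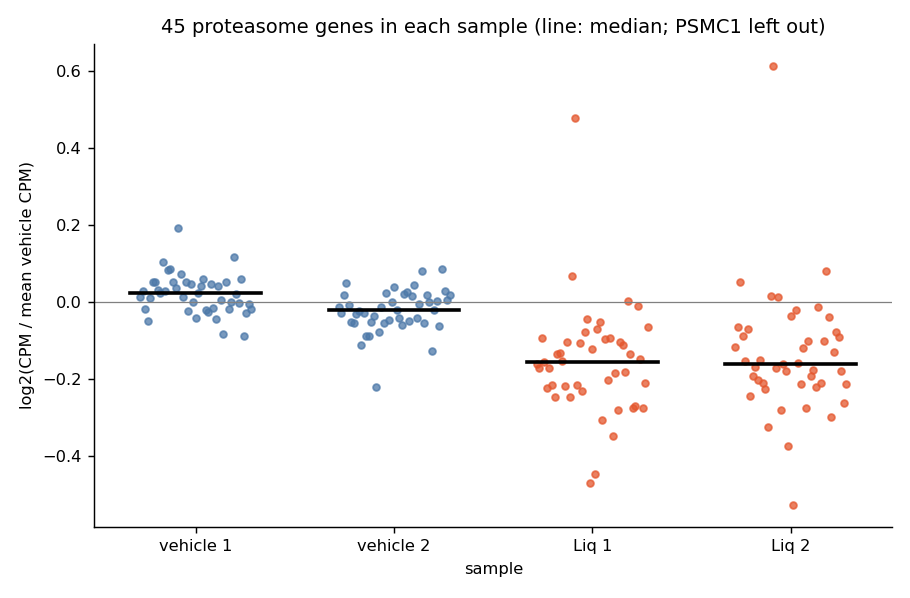
The log2 ratio of CPM to the mean vehicle CPM is plotted for 45 proteasome genes (points; PSMC1 left out for its low counts) in each of the 4 samples, with a line at the median. The vehicle points scatter around 0, and in both Liq samples most points lie below 0 while PSMB9 lies far above the rest.

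Genes of similar abundance also tended to be lower. Among all tested genes between 100 and 500 CPM on average, 68.3% were lower in Liq, 22% were lowered at an adjusted p under 0.05 and the median log2 fold change was -0.08. The 29 proteasome genes in this range were all lower, 10 of them passed the test, and their median was -0.17. Below 10 CPM the median of all tested genes was 0.17. These ranges of level were chosen after the data were seen. Loess offsets that follow the expression level, and so remove this slope, left 37 members lower and a median of -0.10. With these offsets 6 members were lowered (PSMB7, PSMC6, PSMD2, PSMD6, PSMD12 and PSME3), as were 1349 of all 13546 tested genes.

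**Figure D2:**
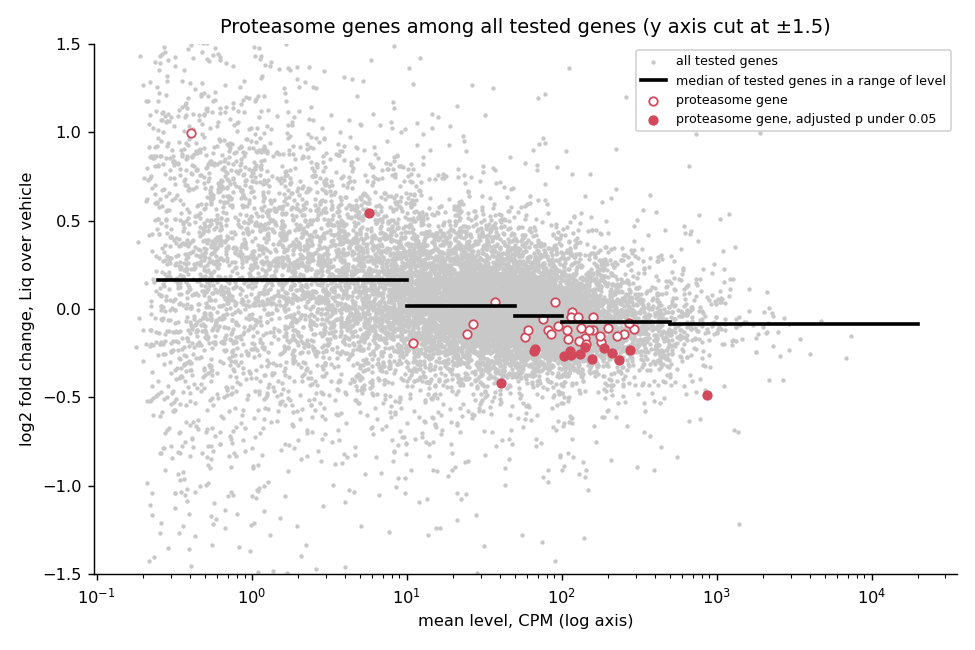
The log2 fold change of Liq over vehicle (y axis, shown up to 1.5 either side of 0) is plotted against mean CPM (log x axis) for all tested genes in grey and proteasome genes in red, filled where the adjusted p is under 0.05. Black lines give the median of all tested genes in 5 ranges of level, which runs from 0.17 at the lowest to -0.08 at the highest, and most proteasome genes lie below the line of their range.

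The number of genes that passed the test varied with the vehicle samples and the scaling. Without vehicle sample 1, 2 genes were lowered (PSMD2 and PSMC6). Without vehicle sample 2, 4 were lowered (the same 2 with PSMB7 and PSME3) and PSMB9 was no longer raised, while without Liq sample 1 or 2 there were 13 and 15. Without Liq sample 1, PSMB1, PSMD12 and PSMG2 were no longer lowered, and without Liq sample 2 this held for PSMG3. Scaling to total gene counts in place of TMM left those same 4 genes lowered, with 36 of the 46 genes lower. Under that scaling 2529 of all 13546 tested genes were raised and 827 lowered, against 1712 and 1533 under TMM. Leaving out either vehicle sample also left fewer of all tested genes lowered, so the smaller number in these fits is not particular to the members. Without vehicle sample 1 the share of members lowered was near that of all tested genes. The members' median log2 fold change was -0.13 without vehicle sample 1 and -0.18 without vehicle sample 2, against 0.01 for all tested genes in each fit. PSMD2 and PSMC6 were lowered in all 13 settings run.

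**Figure D3:**
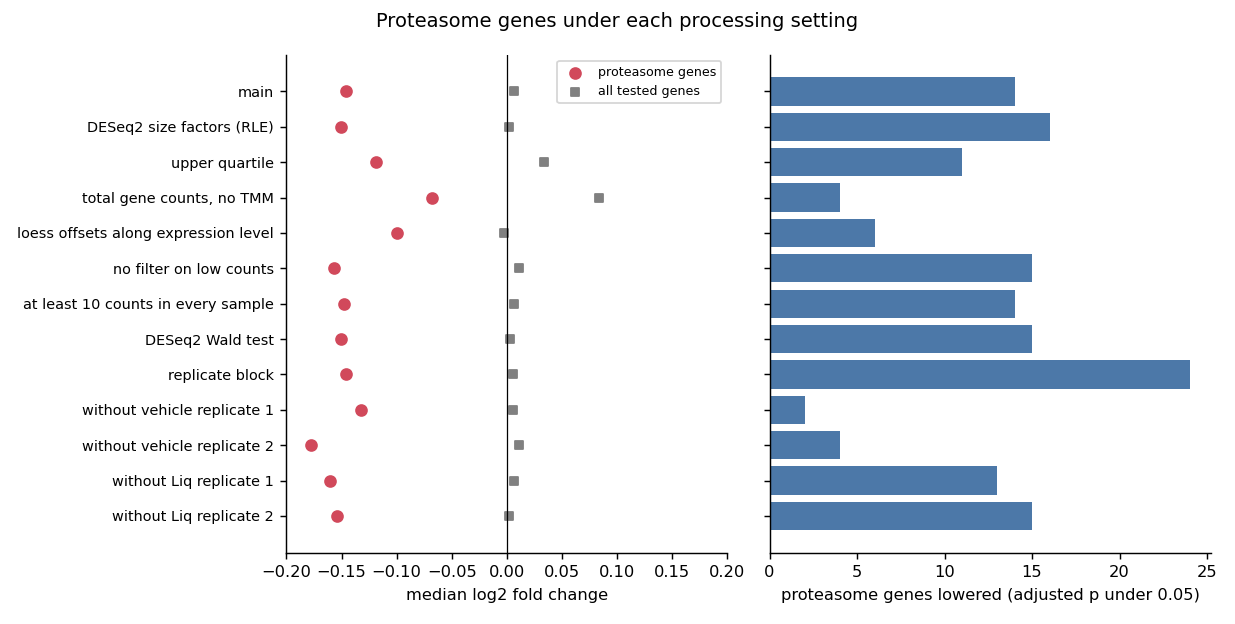
The left panel gives the median log2 fold change of the tested proteasome genes (red) and of all tested genes (grey) in each of the 13 settings, and the right panel the number of proteasome genes lowered at an adjusted p under 0.05 as bars from 0. The red median is negative in every setting, between -0.18 and -0.07, while the bars run from 2 to 24.

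**Figure D4:**
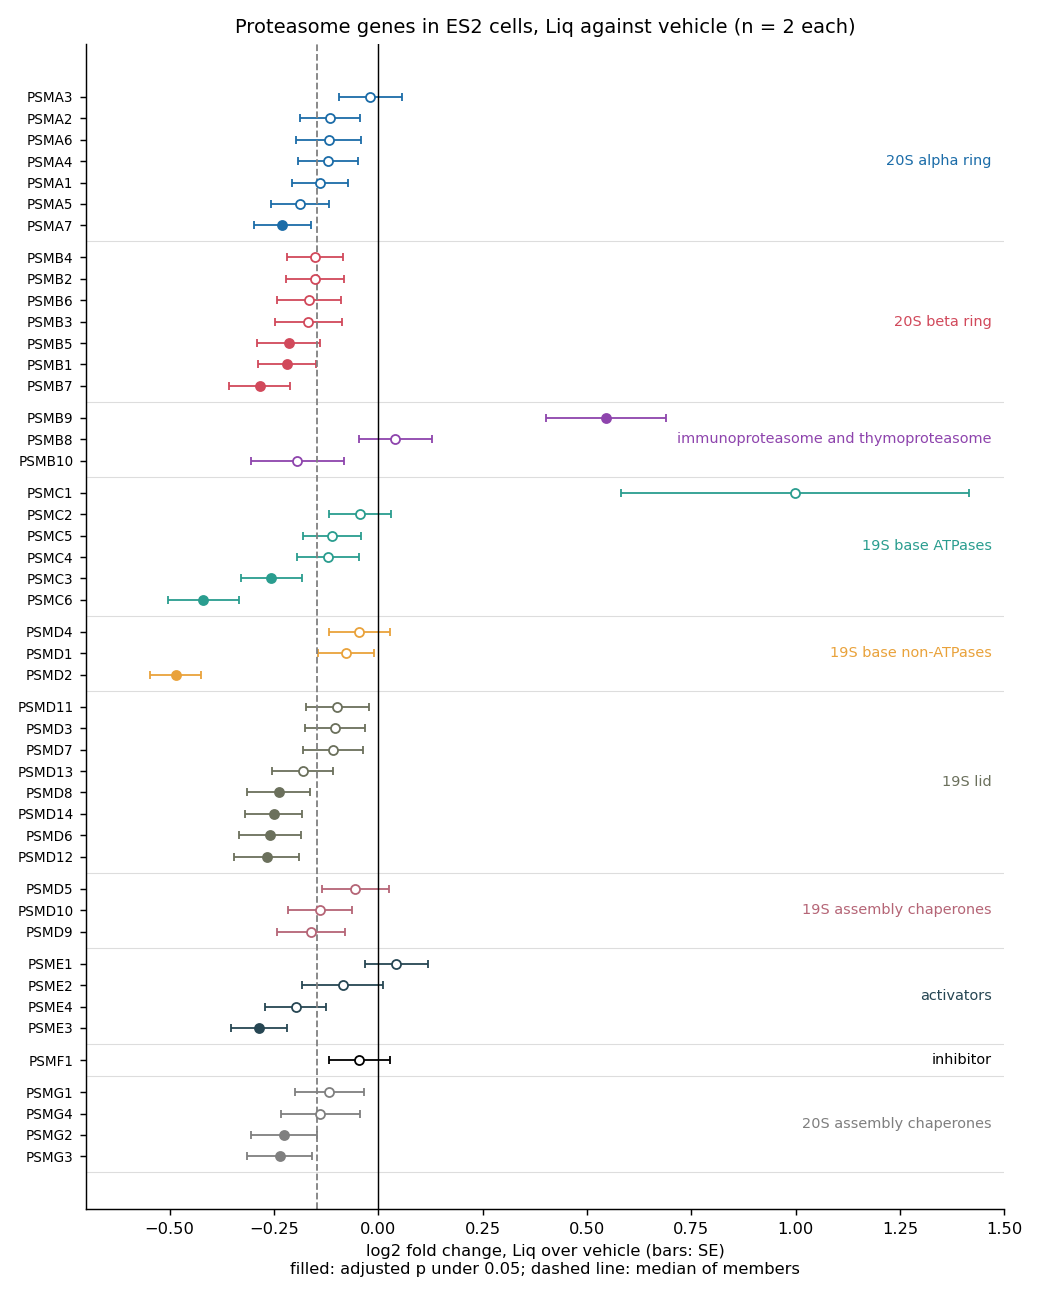
The log2 fold change of Liq over vehicle with its SE (bars) is drawn for the 46 tested proteasome genes, grouped by role and ordered within each group, with filled points where the adjusted p is under 0.05 and a dashed line at the members' median of -0.15. PSMD2 and PSMC6 stand furthest to the left, and PSMB9 and PSMC1 are the only genes well to the right of 0.

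Of the 7 tested alpha ring genes, PSMA7 alone was lowered and all 7 were lower in Liq under TMM. PSMA7, an alpha ring subunit, was at 308 and 287 CPM in vehicle and at 256 and 251 CPM in Liq, a log2 change of -0.23 (SE 0.0678, adjusted p = 0.0146, edgeR). PSMA3, another ring subunit, was at 116 and 119 CPM in vehicle and at 109.7 and 121 CPM in Liq, so that its groups overlapped, and its log2 change of -0.02 turned positive under 3 of the 5 scalings. PSMA5 lay just past the threshold at a log2 change of -0.19 (adjusted p = 0.0511, edgeR). PSMA8, the testis-specific alpha subunit, had 0 counts in all 4 samples, which allows a level of up to the 3 counts given above, for counting error only. The alpha ring genes summed to 1280.3 ± 19.4 CPM in vehicle against 1155 ± 32.0 CPM with Liq (SD, n = 2).

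All 7 constitutive beta ring genes were lower, without overlap between the groups, and 3 were lowered. PSMB7, the subunit with trypsin-like activity, was at 180.0 and 167 CPM in vehicle and at 147 and 139 CPM in Liq, a log2 change of -0.28 (SE 0.0724, adjusted p = 0.00518). PSMB5, the chymotrypsin-like subunit that bortezomib binds, was at 161 and 143 CPM in vehicle and at 131 CPM in both Liq samples, a log2 change of -0.21 (SE 0.0748, adjusted p = 0.0374). The third constitutive catalytic subunit, PSMB6, has caspase-like activity and was at 159.6 and 141 CPM in vehicle and at 140.0 and 129 CPM in Liq. Its log2 change of -0.17 did not pass the test (SE 0.0768, adjusted p = 0.120), and its nearest vehicle and Liq samples differed by less than the vehicle samples did. PSMB1, a non-catalytic ring subunit, was at 206 and 198 CPM in vehicle and at 170.5 and 177 CPM in Liq, a log2 change of -0.22 (SE 0.0697, adjusted p = 0.0230). PSMB4 had the smallest log2 change of the ring, -0.15 (SE 0.0678, adjusted p = 0.107), with 244 and 235 CPM in vehicle and 216 CPM in both Liq samples. At an unadjusted p under 0.05 all 7 genes of the ring passed. The calls in the ring did not hold without vehicle sample 1, and without vehicle sample 2 only that of PSMB7 held. Fewer of all tested genes were lowered in these fits too. All 7 genes stayed lower, with a median log2 change of -0.13 without vehicle sample 1 and -0.25 without vehicle sample 2.

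Of the 3 tested catalytic subunits of the immunoproteasome, 1 was raised and the others did not pass. PSMB9, which takes the place of PSMB6, was at 5.33 and 4.01 CPM in vehicle and at 6.50 and 7.13 CPM in Liq. Both Liq samples lay above both vehicle samples, and the log2 fold change was 0.55 (SE 0.144, adjusted p = 0.00690, edgeR). Without vehicle sample 2, the lowest of the 4 samples, it was 0.36 with an adjusted p of 0.200. PSMB8, which replaces PSMB5, was at 37.4 and 35.5 CPM in vehicle and at 38.2 and 36.8 CPM in Liq, which overlap, with a log2 change of 0.04 (SE 0.0866, adjusted p = 0.774). PSMB10, which replaces PSMB7, was at 12.3 and 11.1 CPM in vehicle and at 10.1 and 10.4 CPM in Liq, a log2 change of -0.19 (SE 0.110, adjusted p = 0.210). PSMB11, the thymus-specific catalytic subunit, had 3 and 4 counts in vehicle and 0 in each Liq sample and was not tested. The difference between the changes of immunoproteasome and constitutive subunits was not tested.

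Per kilobase of transcript the constitutive catalytic genes were far above their immunoproteasome counterparts in both groups. PSMB6 stood at 183 ± 15.6, PSMB7 at 177 ± 9.0 and PSMB5 at 146 ± 12.1 CPM per kb in vehicle (SD, n = 2), and PSMB6 and PSMB7 did not differ beyond their spread. PSMB8 followed at 32.4 ± 1.19, PSMB10 at 12 ± 0.884 and PSMB9 at 4.59 ± 0.918 CPM per kb. In Liq PSMB9 reached 6.70 ± 0.443 CPM per kb and was still the lowest of the 6. PSMB8 and PSMB9 lie side by side on chromosome 6 (GRCh37), at 32808494 to 32812456 on the reverse strand and 32811913 to 32827628 on the forward strand. These spans overlap, and whether reads were counted by strand is not given in the sources used here, so reads in the overlap are uncertain for both genes.

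**Figure D5:**
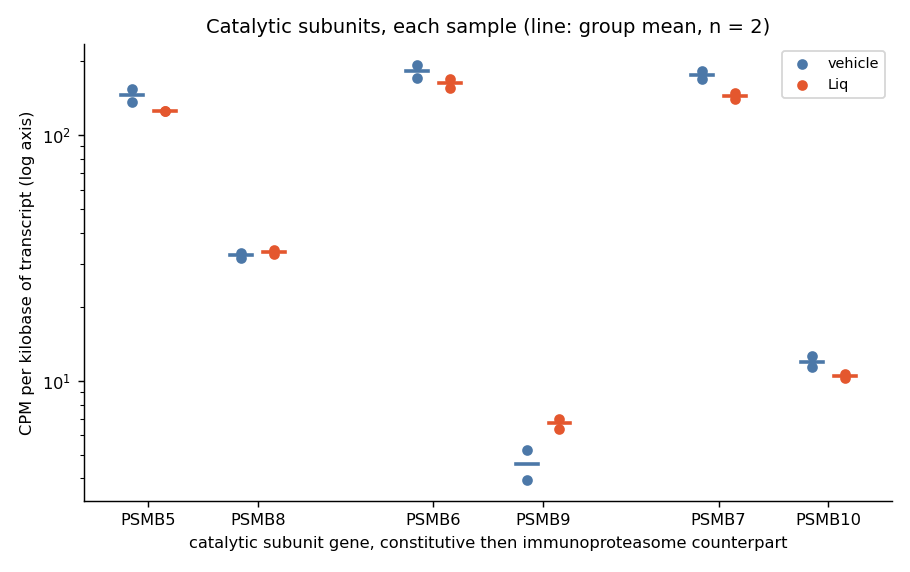
CPM per kilobase of transcript (log axis) is plotted for each of the 2 vehicle and 2 Liq samples, with a line at the group mean, for the 3 constitutive catalytic genes and their immunoproteasome counterparts. In vehicle PSMB5, PSMB6 and PSMB7 lie between 137 and 194, PSMB8 near 32, PSMB10 near 12 and PSMB9 between 3.94 and 5.24, and PSMB9 is the pair member with the clearest rise in Liq.

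Of the 6 ATPase genes of the 19S base, 2 were lowered. PSMC6 was at 46.7 CPM in both vehicle samples and at 33.7 and 36.1 CPM in Liq, a log2 change of -0.42 (SE 0.0853, adjusted p = 0.000712, edgeR). PSMC3, another ATPase of the ring, was at 148 and 137 CPM in vehicle and at 121 and 117 CPM in Liq, a log2 change of -0.26 (SE 0.0736, adjusted p = 0.0122). Neither gene's groups overlapped, which is likely for genes picked by the test and adds no support. PSMC1 had 8 and 13 counts in vehicle and 21 and 25 in Liq, and its log2 change of 1.00 did not pass (SE 0.417, adjusted p = 0.0828). GENCODE names 13 processed copies of PSMC1, and reads aligning to more than 1 place were left out of the counts, so its level is uncertain. The 17 members with named processed copies, PSMC1 among them, had a median log2 change of -0.14, and the 29 tested members without any had -0.15.

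PSMD2, a scaffold of the base that receives ubiquitin-like domains of shuttle proteins, had the smallest p of all members and, per kilobase, the highest level. It was at 1032 and 1001 CPM in vehicle and at 746 and 706 CPM in Liq, a fold of 0.714 and a log2 change of -0.49 (SE 0.0605, adjusted p = 1.18e-06, edgeR). Per kilobase it fell from 349 ± 7.57 to 249 ± 9.84 CPM per kb (SD, n = 2). PSMD4, the ubiquitin receptor of the base, was at 133 and 125 CPM in vehicle and at 123 and 127 CPM in Liq, which overlap, and its log2 change of -0.05 (SE 0.0731, adjusted p = 0.699) turned positive under other scalings. PSMD1, the second large scaffold, also overlapped between the groups and changed sign in the same way. The 3 base genes summed to 1425 ± 16.4 CPM in vehicle against 1116 ± 14.6 CPM with Liq (SD, n = 2), with most of the difference in PSMD2.

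The lid genes were lower in all 8 cases under each of the 5 scalings, and 4 were lowered under TMM. PSMD14, the metalloprotease that removes ubiquitin chains, was at 232 and 231 CPM in vehicle and at 190.4 and 198 CPM in Liq, a log2 change of -0.25 (SE 0.0684, adjusted p = 0.00861). PSMD12 was at 109.9 and 117 CPM in vehicle and at 89.1 and 99.2 CPM in Liq, a log2 change of -0.27 (SE 0.0777, adjusted p = 0.0135). The structural lid subunit PSMD6 was at 123 and 127 CPM in vehicle and at 101 and 107 CPM in Liq, a log2 change of -0.26 (SE 0.0742, adjusted p = 0.0122). None of these overlapped between the groups, which adds no support for genes picked by the test. PSMD8, also a lid subunit, was at 126 and 118 CPM in vehicle and at 106 and 101 CPM in Liq, a log2 change of -0.24 (SE 0.0749, adjusted p = 0.0211). PSMD11, whose increase is known to promote proteasome assembly in stem cells, had the smallest log2 change, -0.10 (SE 0.0744, adjusted p = 0.364), with 97.4 and 99.4 CPM in vehicle and 92.2 and 91.7 CPM in Liq. With either vehicle sample left out the 4 calls in the lid did not hold, and fewer of all tested genes were lowered too. All 8 lid genes stayed lower, with a median log2 change of -0.16 without vehicle sample 1 and -0.22 without vehicle sample 2.

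The chaperones that assemble the base were lower under TMM, but 0 of 3 passed at the adjusted or at the unadjusted threshold in edgeR, and 0 passed in DESeq2. PSMD9 was at 63.2 and 58.7 CPM in vehicle and at 56.4 and 52.7 CPM in Liq, a log2 change of -0.16 (SE 0.0815, adjusted p = 0.156). PSMD5 was at 73.2 and 81.9 CPM in vehicle and at 72.2 and 76.9 CPM in Liq, which overlap, and its log2 change of -0.06 turned positive under scaling to total counts. Among the chaperones of the 20S core, 2 of 4 were lowered and all 4 lay lower without overlap. PSMG3 was at 71.3 and 71.8 CPM in vehicle and at 61.9 and 59.7 CPM in Liq, a log2 change of -0.24 (SE 0.0778, adjusted p = 0.0277). PSMG2, which pairs with PSMG1 to assemble the alpha ring, was at 70.7 and 73.6 CPM in vehicle and at 59.6 and 63.7 CPM in Liq, a log2 change of -0.23 (SE 0.0789, adjusted p = 0.0384). PSMG1 itself was at 59.3 and 67.0 CPM in vehicle and at 57.0 and 59.3 CPM in Liq, a log2 change of -0.12 (SE 0.0824, adjusted p = 0.318). Neither call held when a vehicle sample was left out, where fewer of all tested genes were lowered too. Not both held when a Liq sample was left out. All 4 core chaperone genes stayed lower, with a median log2 change of -0.22 without vehicle sample 1 and -0.16 without vehicle sample 2.

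Among the 4 activators PSME3 was lowered, and the others did not pass. PSME3, the nuclear activator PA28γ, was at 263 and 255 CPM in vehicle and at 214 and 211 CPM in Liq, a log2 change of -0.29 (SE 0.0675, adjusted p = 0.00280, edgeR). PSME1, a subunit of the interferon-inducible activator PA28, was at 89.5 CPM in both vehicle samples and at 89.7 and 94.6 CPM in Liq, a log2 change of 0.04 (SE 0.0754, adjusted p = 0.729). The nuclear activator PSME4, or PA200, lay just outside the threshold with a log2 change of -0.20 (SE 0.0734, adjusted p = 0.0503). PSMF1, the inhibitor PI31, was at 169 and 155 CPM in vehicle and at 161 and 153 CPM in Liq, which overlap, and its log2 change of -0.05 (SE 0.0726, adjusted p = 0.696) turned positive under loess offsets and total counts. Without vehicle sample 1 PSME3 no longer passed (adjusted p = 0.105, edgeR).

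Proteins that work with the proteasome were examined as lists. Of 16 associated factors, 4 were lowered and 1 was raised, where 11.3% of all tested genes were lowered and 12.6% raised. POMP, the chaperone that matures the 20S core, was at 94.2 and 92.6 CPM in vehicle and at 67.4 and 79.9 CPM in Liq, a log2 change of -0.34 (SE 0.0827, adjusted p = 0.00361, edgeR). ADRM1, the ubiquitin receptor docked on PSMD1, was at 207 and 186 CPM in vehicle and at 174 and 155 CPM in Liq, a log2 change of -0.26 (SE 0.0757, adjusted p = 0.0152). FBXO7, an F-box protein that binds PSMF1, was at 82.9 and 80.7 CPM in vehicle and at 68.1 and 68.7 CPM in Liq, a log2 change of -0.26 (adjusted p = 0.0147). PAAF1, which binds the ATPases and keeps the cap from the core, was raised from 29.6 and 27.7 CPM to 36.5 and 36.4 CPM, a log2 change of 0.35 (SE 0.0887, adjusted p = 0.00534). No groups overlapped among these 4 genes, which adds no support since the test picked them. Total counts gave 1 lowered and 3 raised, the opposite balance, and loess offsets gave 3 and 2. The median log2 change of the list was -0.08 under TMM and 0.00 under total counts. The lowered calls did not hold without vehicle sample 1, and that of PAAF1 did not hold without vehicle sample 2. Fewer of all tested genes were called in these fits too. The list's median log2 change was -0.085 without vehicle sample 1 and -0.070 without vehicle sample 2.

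Shuttle proteins carry ubiquitinated proteins to the proteasome. UBQLN2, a ubiquilin shuttle, was at 33.7 and 32.1 CPM in vehicle and at 26.4 and 26.9 CPM in Liq, a log2 change of -0.30 (SE 0.0899, adjusted p = 0.0149, edgeR), and its groups did not overlap. Without vehicle sample 1 it no longer passed. Of the 6 ubiquitin and E1 genes, 0 passed in either direction in edgeR or DESeq2, and UBA1, the main ubiquitin-activating enzyme, passed at the unadjusted threshold with a log2 change of -0.17 (adjusted p = 0.0618). Without Liq sample 1 or 2 the number lowered was 1 and 2.

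Of 14 genes that act in the transcriptional control of proteasome genes, 3 were lowered and 1 was raised. Over all tested genes 11.3% were lowered and 12.6% raised. NFE2L1, the factor named above, was at 265 and 254 CPM in vehicle and at 273 and 262 CPM in Liq, which overlap, with a log2 change of 0.04 (SE 0.0674, adjusted p = 0.701, edgeR). NFE2L2 (NRF2), its relative that responds to oxidative and electrophilic stress, was lowered from 143 and 151 CPM to 119 and 125 CPM, a log2 change of -0.27 (SE 0.0728, adjusted p = 0.00833). MAFF, a small MAF protein that pairs with both factors on DNA, was lowered from 101 and 98.8 CPM to 53.1 and 50.3 CPM, a log2 change of -0.95 (SE 0.0777, adjusted p = 7.90e-10). MAFK, another small MAF, was lowered from 48.1 and 45 CPM to 34.7 and 32.1 CPM, a log2 change of -0.48 (SE 0.0872, adjusted p = 0.000202). SEL1L, part of the complex that degrades NFE2L1 at the endoplasmic reticulum, was raised from 95.6 and 94.2 CPM to 115 and 122 CPM, a log2 change of 0.33 (SE 0.0745, adjusted p = 0.00219). No groups overlapped among the 4 genes that passed, which their selection by the test makes likely. With either vehicle sample left out the raised call did not hold and fewer genes of the list were lowered, as among all tested genes. The list's median log2 change was -0.11 without vehicle sample 1 and -0.08 without vehicle sample 2. More genes were called without Liq sample 2.

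NFE2L1, NFE2L2 and the small MAF proteins bind the antioxidant response element, whose core TGACNNNGC was searched on both strands (reverse GCNNNGTCA) in the 250 bases before each RefSeq start (GRCh38.p14). Its letters TGAC also begin other motifs such as the AP-1 site. It was present upstream of 13 of the 42 members with an entry, or 31.0%, and of 13.2% of all 27305 genes with an entry. Those 27305 include genes not tested here, and a gene with several starts counts if any of them has the core. The 2 shares are therefore not like for like, and whether they differ was not tested. Of the 13 genes with the core, 11 were lower, 2 were lowered, PSMB9 was raised and the median log2 fold change was -0.12. The 33 other tested members, those without an entry included, had a median of -0.15 and 12 lowered. Members without an entry were not searched, and PSMA7, PSMB1, PSMB7 and PSMG3 of the 12 lowered were among them. The 2 groups therefore do not compare genes with and without the core. The members with the smallest p among those with the core are shown because they include both directions of change, and capitals mark the core. Each is printed on the strand of its gene, 5′ to 3′. PSMB9 lies at chr6:32853999-32854097 (forward), PSMD12 at chr17:67366689-67366787 (reverse), PSMG2 at chr18:12658654-12658737 (forward), PSME4 at chr2:53970994-53971072 (reverse), PSMB3 at chr17:38752592-38752690 (forward) and PSMD9 at chr12:121888643-121888741 (forward).
PSMB9: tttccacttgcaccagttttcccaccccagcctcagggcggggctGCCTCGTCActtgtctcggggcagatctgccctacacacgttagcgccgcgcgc
PSMD12: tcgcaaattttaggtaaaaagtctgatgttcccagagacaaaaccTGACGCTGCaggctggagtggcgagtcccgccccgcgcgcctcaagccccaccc
PSMG2: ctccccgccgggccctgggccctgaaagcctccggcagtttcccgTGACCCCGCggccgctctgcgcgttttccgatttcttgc
PSME4: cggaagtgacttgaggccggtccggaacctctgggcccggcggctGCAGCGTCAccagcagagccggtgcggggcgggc
PSMB3: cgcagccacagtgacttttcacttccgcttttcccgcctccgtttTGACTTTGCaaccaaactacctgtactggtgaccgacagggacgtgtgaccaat
PSMD9: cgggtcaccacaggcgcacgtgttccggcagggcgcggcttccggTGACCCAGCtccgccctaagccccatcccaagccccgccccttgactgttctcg
A match describes the letters of these windows and not a bound site. The core was present upstream of the raised gene and of the lowered genes PSMD12 and PSMG2. The members without an entry were PSMA7, PSMB1, PSMB6, PSMB7, PSMD4 and PSMG3. The CCAAT box (reverse ATTGG), searched on both strands after the data were seen, was upstream of 19 of the 42 members and of 37% of genes. The limits of the comparison are the same.

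PSMB9 shares its promoter region with TAP1, the peptide transporter of antigen presentation, whose nearest RefSeq start lies 488 bases from that of PSMB9 (GRCh38.p14). The limit given above for reads in overlapping spans applies to both genes. TAP1 was at 29.9 and 27.9 CPM in vehicle and at 33.9 and 33.5 CPM in Liq, without overlap, but its log2 change of 0.22 did not pass the test (SE 0.0894, adjusted p = 0.0733, edgeR). Of the 12 antigen presentation genes, 1 was raised under TMM, where 12.6% of all tested genes were raised. Under total counts 2529 of all 13546 tested genes were raised. The gene raised under TMM was ERAP1, a peptidase that trims peptides for MHC class I. ERAP1 was at 59.8 and 57.8 CPM in vehicle and at 74.6 and 76.3 CPM in Liq, a log2 change of 0.36 (SE 0.0778, adjusted p = 0.00133, edgeR). Upper quartile scaling and loess offsets each gave 3 raised genes in this list and total counts gave 4. The call of ERAP1 did not hold without vehicle sample 2, where fewer of all tested genes were raised too. More genes of the list were raised without Liq sample 2.

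Other large complexes were counted in the same way, and whether they differed from the proteasome was not tested. All 8 genes of the chaperonin CCT, which folds actin and tubulin, were lower without overlap, 7 of them were lowered, and their median log2 fold change was -0.23. CCT2 was at 468 and 478 CPM in vehicle and at 371 and 402 CPM in Liq, a log2 change of -0.29 (SE 0.0651, adjusted p = 0.00173, edgeR). In the COP9 signalosome, a relative of the 19S lid, 2 of 9 genes were lowered (COPS3 and COPS5) and the median was -0.14, where 11.3% of all tested genes were lowered. In eIF3, the translation initiation factor that shares the same architecture, 2 of 12 tested genes were lowered (EIF3M and EIF3I) and the median was -0.09. Of 77 tested cytosolic ribosomal protein genes 9 were lowered, a share near the 11.3% of all tested genes, and 2 were raised (RPS27L and RPL14), against 12.6% of all, with a median of -0.08 that became 0.02 under loess offsets. Leaving out either vehicle sample left fewer lowered genes in each complex, as it did among all tested genes. Without vehicle sample 1 the median log2 change was -0.24 for CCT, -0.16 for COP9, -0.12 for eIF3 and -0.03 for the ribosomal genes. Without vehicle sample 2 it was -0.23, -0.15, -0.11 and -0.12 in that order. The numbers called also varied with the Liq sample left out. With total counts 3 CCT genes, 0 COP9 genes, 0 eIF3 genes and 2 ribosomal genes were lowered and 4 ribosomal genes were raised, and the median was -0.15 for CCT, -0.07 for COP9 and -0.01 for eIF3. With loess offsets 3 CCT genes, 2 COP9 genes, 0 eIF3 genes and 5 ribosomal genes were lowered and 4 ribosomal genes were raised.

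Members are spread over 17 chromosomes. Some lie close together, such as PSME1 and PSME2 on chromosome 14 and PSMB8 and PSMB9 on chromosome 6. Chromosome 14 carries 8 of the 48 genes and chromosome 17 carries 7. Across 45 tested members without PSMC1, the Spearman correlation of the log2 fold change with the vehicle level per kilobase was -0.22. It is a description over genes measured in the same 4 libraries.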

How the data were processed

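Total RNA of ES2 cells was sequenced by the authors on an Illumina HiSeq instrument in duplicate. The submitters' processing notes name bcl2fastq 2.17.1.14, TopHat2 2.0.8b and HTSeq, with the hg19 (GRCh37) build. The authors deposited raw counts per gene, 1 table per sample, neither normalized nor pooled. The HTSeq version, strand setting, overlap mode and annotation release are not given in the sources used here. Of the reads tallied in each table, 54.1% to 55.6% were on genes and 35.6% to 36.2% aligned to more than 1 place, and these and the other 4 summary lines were left out of library sizes and tests.

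Groups came from the sample labels. The quasi-likelihood test of edgeR 4.0.16 (glmQLFit, glmQLFTest; R 4.3.3) compared the groups with TMM scaling and no block. It was run on the 13546 of 23228 genes retained by filterByExpr (min.count 10, min.total.count 15), and Benjamini-Hochberg adjustment covered all of them. The SE is the size of the log2 fold change divided by the square root of F. Levels per kilobase divide CPM by the canonical transcript of GENCODE 44 lifted to GRCh37, which can differ from the transcript in use. Loess offsets used a span of 0.3. The steps were tested on simulated counts with 200 changed genes. Alternatives were other scalings, other filters, the DESeq2 1.42.0 Wald test, a replicate block and each sample left out.

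Values were printed for members with an adjusted p under 0.05, all catalytic subunits, members failing the filter and the extremes of each role group, and for up to 3 genes by smallest p per list and direction together with NFE2L1, NFE2L2, POMP and ESR2. Promoter windows were printed for up to 6 members by smallest p with the motif. Other members are given by counts and ranges, and values of genes outside the rule (PSMA5, PSMD1, UBA1 and TAP1 among them) were added after they were seen. The members and lists were chosen with earlier results of these data known. Some genes of these lists are not reported here.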

Additional observations from a re-analysis of the deposited data

How the results depend on the processing

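The main numbers were 14 members lowered, 1 raised, 1 past a 1.5-fold change with p under 0.05, and a median log2 fold change of -0.15. The number lowered was 4 with total gene counts, 6 with loess offsets along the expression level and 24 with the replicate block, and it ranged from 2 to 15 when 1 sample was left out. Of all 13546 tested genes, 827 were lowered with total gene counts, 1349 with loess offsets and 2474 with the replicate block. The number of members lowered was 16 with DESeq2 size factors and 11 with the upper quartile. It was 15 with no filter and with the DESeq2 Wald test, and 14 with at least 10 counts in every sample. The number raised ranged from 0 to 1 when 1 sample was left out. The 1.5-fold number was 2 with total gene counts or no filter and 0 with loess offsets, at least 10 counts in every sample or the DESeq2 Wald test. The median was -0.068 with total gene counts and -0.10 with loess offsets, and between -0.18 and -0.13 with 1 sample left out. No result turned in direction among those called. The causes were not tested, except that a fit without 1 sample has fewer samples and assumes that the lone sample varies like the other group. Of the 14 lowered genes, 4 were called under all 5 scalings and 2 in all 13 settings, and 6 members that were lower changed sign under another scaling. The labels tie no number to a shared culture or day, so the block was not used in the main fit. The deviations of same-numbered samples correlated at 0.129 over 13546 genes. With only 2 numbers this cannot show whether same-numbered samples shared a culture or day. Members under 3 counts, PSMA8 and PSMB11 in Liq, are at the limit of this depth.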
